A study of Ovis aries with 3 samples.

Results

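The genes described here are 10 transcription factors that mark neural progenitors and their dorsoventral positions: *SOX1*, *SOX2*, *SOX3*, *HES5*, *PAX6*, *IRX3*, *DBX1*, *NKX6-1*, *OLIG2* and *ZIC1*. They were taken by name from the knowledge of neural tube patterning, with no threshold on their values but with earlier results of these data known, and all 10 were found by symbol among the 26478 genes listed. Each had at least 1 UMI (unique molecular identifier, a counted transcript molecule) in each library, so all 10 are described. The data are single-cell transcript counts from whole sheep embryos, with 1 droplet library in each of 3 groups. E19 HSTS was a day 19 embryo of Hulunbuir Short-tailed sheep, a breed whose animals in this study were homozygous for a missense change in *T* (brachyury). E19 HS was a day 19 embryo of Hu sheep, which carry the wild-type *T* allele, and E16 HS was Hu sheep material of day 16. The label of the E16 HS library names 1 embryo while the study's methods give 3, and whether they were pooled is not given in the sources used here. Cells of all 3 groups were dissociated with collagenase and passed through red blood cell lysis. Breed and *T* allele differ together between E19 HSTS and E19 HS and cannot be told apart, and a missense allele leaves the *T* transcript countable, so *T* counts do not check the genotype.

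In the early neural tube, the SOXB1 factors SOX1, SOX2 and SOX3 keep cells in the progenitor state, and HES5 is an effector of Notch signalling that holds back neurogenesis. Opposing dorsal (BMP and WNT) and ventral (Sonic hedgehog) signals then divide the progenitors into bands along the dorsoventral axis, each with its own set of factors. ZIC1 marks the dorsal part, PAX6 and IRX3 cover a broad intermediate part, DBX1 marks a narrow band close to the midpoint, NKX6-1 marks the ventral part, and OLIG2 marks the motor neuron progenitors, where OLIG2 and IRX3 repress each other. Several of these factors also act elsewhere: *SOX2* in caudal progenitors and in surface and sensory ectoderm, *PAX6* in eye and nasal ectoderm, *IRX3* in lateral and limb mesoderm, and *ZIC1* in somites.

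E19 HSTS had 11114 deposited barcodes, E19 HS 12064 and E16 HS 12645, of which 9618, 10629 and 11329 passed the filter (200 to 6000 genes, 1000 to 30000 UMIs, mitochondrial UMIs not above 10%). Values in threes below keep this order of libraries. The kept cells held 99580051, 88733467 and 113213654 UMIs, with a median of 8675, 6900 and 9046 UMIs per cell. Pairs of libraries shared 31 to 37 of their kept barcodes, at most 0.348% of the smaller library. Clustering with the 10 factors left out gave 19 clusters, which were named after marker genes that do not include them, and "-like" below stands for such a name. The neural progenitor-like cluster held 1653, 2448 and 794 cells, which was 17.2%, 23% and 7.01% of the kept cells. Its name rests on *FABP7*, *NES* and *PAX3*, which is the smallest number of detected markers allowed for a name. None of these was among its 10 leading genes. When all genes were ranked it was led by *PAX6* and *SOX2*, which the naming had not used. Blood progenitor-like cells made up 27.4%, 13.4% and 17.7% of the kept cells and 45.6%, 28.8% and 24.5% of all UMIs. Clusters left without a name held 7.22%, 8.08% and 15.6% of the cells. The rules for giving a name were set after the clusters had been seen. Levels are given as UMIs per 1000000 UMIs of the cells concerned (CPM). With 1 library a group there is no replicate check and no test, and all intervals are exact 95% intervals that cover counting error only.

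At day 19, transcripts of several of the factors made up a smaller part of the E19 HSTS library than of the E19 HS library. *SOX2* (ENSOARG00020005758) was at 83.4 CPM in E19 HSTS and 121 CPM in E19 HS, a ratio of 0.689 (0.669 to 0.709). *PAX6* (ENSOARG00020007805) was at 16.6 and 24.7 CPM, a ratio of 0.674 (0.632 to 0.718). *IRX3* (ENSOARG00020008675) was at 21.4 and 26.6 CPM, a ratio of 0.807 (0.761 to 0.857). These 3 intervals lay below 1, as did those of *ZIC1* (ENSOARG00020005847; 3.03 and 4.11 CPM, ratio 0.737, 0.631 to 0.861) and *NKX6-1* (ENSOARG00020015056; 1.67 and 2.27 CPM, ratio 0.736, 0.596 to 0.908). *DBX1* (ENSOARG00020025685) had 7 UMIs in E19 HSTS against 21 in E19 HS, a ratio of 0.297 (0.107 to 0.725). It was the only 1 of the 10 past 2-fold, while 3.3% of the 13984 genes with at least 20 UMIs in both libraries together were at least 2-fold lower and 2.4% at least 2-fold higher. Among all genes with at least 1 UMI the shares were 6.44% and 4.41%. The other 4 factors had ratios of 0.891 to 0.987 with intervals that held 1: *SOX1* (ENSOARG00020004913; 16 and 16 UMIs), *SOX3* (ENSOARG00020013426; 103 and 98 UMIs), *OLIG2* (ENSOARG00020000104; 43 and 40 UMIs) and *HES5* (ENSOARG00020006401; 41 and 37 UMIs). The median log2 ratio was -0.37 over the 10 factors and -0.05 over all genes counted. By the counting interval, 6 of the 10 factors lay below 1 and 0 above, against 29.5% and 18.6% of all genes counted.

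The libraries also differed in the kinds of cells they held, as given above for the neural progenitor-like and blood progenitor-like clusters. Sums over a whole library do not separate fewer cells of a type from a lower level within those cells. Levels within the neural progenitor-like cluster alone are given further below. With the blood progenitor-like clusters left out of both libraries, the E19 HSTS to E19 HS ratio was 0.886 (0.861 to 0.913) for *SOX2*, 0.861 (0.807 to 0.919) for *PAX6* and 1.04 (0.98 to 1.1) for *IRX3*. Without those cells the intervals of *ZIC1* (ratio 0.943), *NKX6-1* (0.941) and *DBX1* (0.429, 0.153 to 1.07) also held 1. *SOX2* and *PAX6* were then the only factors whose interval stayed below 1, 0 lay above 1, and 5 of the 10 ratios were above 1. Over the 13736 genes counted in these cells, 10.1% of intervals lay below 1 and 44.4% above, with a median log2 ratio of 0.21.

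In the E16 HS library, 9 of the 10 factors were at least 2-fold lower than in E19 HS, the library that serves both comparisons. Over all 14127 genes counted in this comparison, 7.89% were at least 2-fold lower and 8.06% at least 2-fold higher (10.1% and 9.15% of all genes with at least 1 UMI), and the median log2 ratio was 0.21, against -2.18 over the 10 factors. The ventral factor *OLIG2* had 2 UMIs in E16 HS and 40 in E19 HS, a ratio of 0.0392 (0.00459 to 0.151). *ZIC1* was at 0.495 against 4.11 CPM, 8.32-fold lower (ratio 0.12, 0.0891 to 0.16), and *NKX6-1* at 0.415 against 2.27 CPM, 5.46-fold lower (ratio 0.183, 0.13 to 0.253). *PAX6* was at 8.05 CPM, 3.07-fold lower, and *SOX2* at 47.1 CPM, 2.57-fold lower. The counts of *DBX1* (5 UMIs), *SOX1* (4 UMIs), *SOX3* (31 UMIs) and *HES5* (14 UMIs) gave ratios of 0.187, 0.196, 0.248 and 0.297. All 10 intervals lay below 1, as did 20.5% of all genes counted, while 47.4% lay above. *IRX3* had the ratio nearest 1, at 20.9 CPM in E16 HS and 26.6 CPM in E19 HS, a ratio of 0.786 (0.743 to 0.833). Cells of the neural progenitor-like and early neuron-like clusters together were 7.19% of the E16 HS cells and 25.7% of the E19 HS cells.

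**Figure D1:**
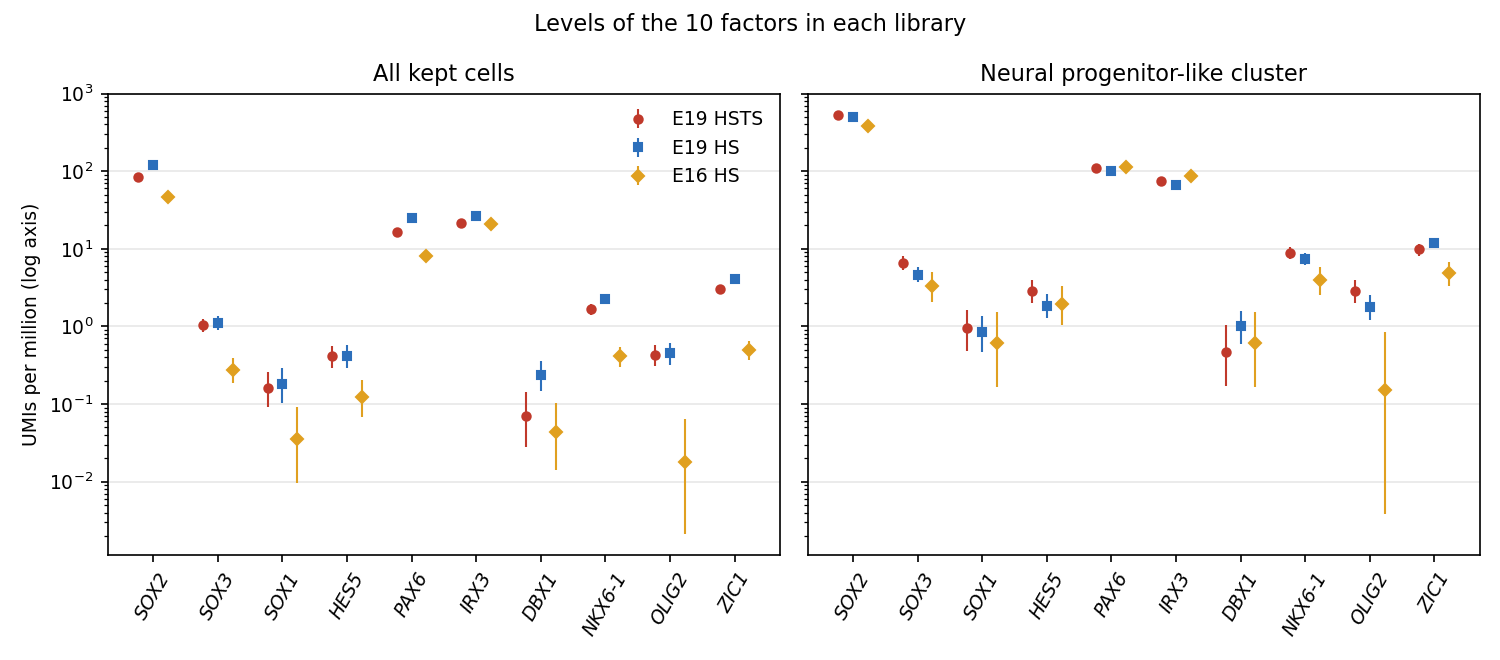
Levels of the 10 factors in UMIs per 1000000 (log axis) in each of the 3 libraries, with exact 95% counting intervals, over all kept cells (left) and over the neural progenitor-like cluster alone (right). E16 HS lies below E19 HS for all 10 factors on the left, whereas on the right PAX6, IRX3 and HES5 of E16 HS lie at or above E19 HS.

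Within the neural progenitor-like cluster the picture between the day 19 libraries was different. *SOX2* was at 525 CPM in E19 HSTS and 497 CPM in E19 HS, a ratio of 1.06 (1.02 to 1.09). *PAX6* was at 109 and 102 CPM (ratio 1.08, 1 to 1.15) and *IRX3* at 75.7 and 65.5 CPM (ratio 1.16, 1.06 to 1.26). *SOX3* was at 6.6 and 4.64 CPM, a ratio of 1.42 (1.04 to 1.95). In these cells the intervals of *SOX2*, *SOX3* and *IRX3* lay above 1 and the other 7, *PAX6* among them, held 1. Over the 10726 genes with at least 20 UMIs in these cells, 36% of intervals lay above 1 and 9.55% below, and the median log2 ratio was 0.23, so that the 3 of 10 are near the share of all genes. The 2 factors with a ratio below 1 were *ZIC1* (0.822, 0.654 to 1.03) and *DBX1* (0.469, 0.152 to 1.23, from 6 and 18 UMIs). *OLIG2* (ratio 1.58, 0.956 to 2.63), *HES5* (1.54, 0.93 to 2.54), *NKX6-1* (1.19, 0.916 to 1.54) and *SOX1* (1.13, 0.481 to 2.58) had intervals that held 1. Of the other patterning genes looked up in these cells, *PAX3*, a dorsal factor, was at 46.8 and 35.5 CPM (ratio 1.32, 1.18 to 1.48), *PAX7*, its close relative, had 18 and 16 UMIs, and *NKX2-2*, a factor of the most ventral progenitors, had 1 and 4 UMIs.

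Between E16 HS and E19 HS, the neural progenitor-like cells differed by factor. Over all 10236 genes counted there, 27.7% of intervals lay above 1 and 13.5% below. Of the 10 factors, *IRX3* and *PAX6* had intervals above 1: *IRX3* was at 88 against 65.5 CPM (ratio 1.35, 1.22 to 1.49) and *PAX6* at 112 against 102 CPM (ratio 1.1, 1.01 to 1.2). The intervals of *ZIC1*, *NKX6-1*, *OLIG2* and *SOX2* lay below 1. *ZIC1* was at 4.83 against 12 CPM (ratio 0.404, 0.27 to 0.588), *NKX6-1* at 3.93 against 7.48 CPM (ratio 0.525, 0.331 to 0.803), and *OLIG2* had 1 UMI against 32 (ratio 0.0845, 0.00208 to 0.506). *SOX2* was at 381 against 497 CPM (ratio 0.766, 0.733 to 0.801). *HES5* had 13 UMIs against 33, a ratio of 1.07 (0.515 to 2.08), and the intervals of *SOX1* (0.721), *SOX3* (0.717) and *DBX1* (0.601) also held 1. The dorsal factor *PAX3*, unlike *ZIC1*, was higher at day 16, with a ratio of 1.34 (1.16 to 1.53).

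*SOX2*, a SOXB1 factor that keeps neural cells in the progenitor state, was detected in 2140 cells of E19 HSTS (22.2%), in 2999 cells of E19 HS (28.2%) and in 1621 cells of E16 HS (14.3%). With each cell thinned to 3000 UMIs, and cells with fewer left out, the shares were 17.1%, 22% and 9.71% of 8512, 9284 and 10012 cells, in the same order of libraries. In blood progenitor-like cells, which should lack the transcript, 3.68%, 3.38% and 2.55% had a *SOX2* UMI at a median depth of 17492, 17569 and 13946 UMIs, against 7826, 7122 and 8376 UMIs in *SOX2* cells. Thinned to the same 3000 UMIs, 1.47%, 1.35% and 1.4% of the blood progenitor-like cells did. Before thinning, 46.4%, 35.4% and 41.2% of the blood progenitor-like cells with *SOX2* had a single *SOX2* UMI, and the most were 13, 10 and 9. Doublets were not removed, and their part in this background was not tested. In the neural progenitor-like cluster 89.5%, 89.3% and 86% of cells had *SOX2*, with a median of 4, 3 and 3 UMIs in the positive cells. In E19 HS its level ran from 497 CPM in neural progenitor-like cells to 180 CPM in early neuron-like cells, 133 CPM in caudal progenitor-like cells and 128 CPM in surface ectoderm-like cells, and to 86 CPM in neural crest-like cells. The intervals of the caudal progenitor-like and surface ectoderm-like cells overlapped. In somite-like cells *SOX2* was seen in 3.57%, 3.32% and 2.8% of cells. Its level there was 11.5, 11.8 and 8.06 CPM, against 5.66, 6.38 and 5.59 CPM in the deeper blood progenitor-like cells.

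The other members of the SOXB1 group and *HES5* were counted in few cells. The neural progenitor-like cluster held 81.6%, 84.7% and 71% of the *SOX3* UMIs, and 12 of 16, 15 of 16 and 4 of 4 *SOX1* UMIs, with 2 *SOX1* UMIs of E19 HSTS in blood progenitor-like cells. *SOX3* was detected in 4.66%, 3.27% and 2.77% of neural progenitor-like cells, and 92.7%, 88.4% and 83.9% of all cells with *SOX3* also had *SOX2*. *SOX1* was detected in 16, 16 and 4 cells, of which all but 1, in E19 HS, had *SOX2*. *HES5* was detected in 36, 33 and 13 neural progenitor-like cells (2.18%, 1.35% and 1.64%) and in 0 of the 569 early neuron-like cells of the 3 libraries, a count that allows a share of up to 0.527%. At such shares, most cells that carry these transcripts can be missed at the depth of these libraries.

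*PAX6*, a factor of the intermediate progenitors, had 13.1%, 14.8% and 18.9% of its UMIs outside the neural progenitor-like and early neuron-like clusters. It was detected in 38.2%, 36.2% and 42.8% of neural progenitor-like cells. In early neuron-like cells it was detected in 12.8% and 10.6% at day 19 and in 0 of 21 cells at day 16. In somite-like cells it was detected in 0.995%, 0.824% and 0.758%, at 1.88, 2.36 and 1.23 CPM. In blood progenitor-like cells, which are deeper, it was detected in 1.06%, 0.915% and 0.999%, at 1.17, 0.822 and 1.05 CPM. *DBX1*, the factor of the p0 progenitor band, was found in 6, 21 and 4 cells, and all of them but 1, in E16 HS, had *SOX2*.

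*IRX3* was spread more widely. In neural progenitor-like cells it was detected in 34.1%, 28.9% and 39.9%, and in surface ectoderm-like cells in 25.4%, 28% and 36.4%. In somite-like cells it was detected in 15.8%, 13.2% and 17.5%, against 1.71%, 1.41% and 2% of blood progenitor-like cells. In E19 HS the order of its level was 65.5 CPM in neural progenitor-like cells, 53.2 CPM in surface ectoderm-like cells, 35.2 CPM in early neuron-like cells, 27.2 CPM in haematoendothelial-like cells and 27.1 CPM in somite-like cells. The intervals of the last 3 overlapped. It was low in urogenital-like cells, at 5.08 CPM, and in blood progenitor-like cells, at 1.25 CPM.

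The ventral factors were found in neural progenitor-like and early neuron-like cells. *NKX6-1* was detected in 6.05%, 4.98% and 2.64% of neural progenitor-like cells and, at day 19, in 9.77% and 11% of early neuron-like cells. *OLIG2* was detected in 2.06% and 1.18% of neural progenitor-like cells of E19 HSTS and E19 HS, and in 1 of 794 such cells of E16 HS. The dorsal factor *ZIC1* was detected in 5.63%, 6.9% and 3.65% of neural progenitor-like cells and in 3.88%, 3.05% and 0.379% of somite-like cells, against 0.38%, 0.493% and 0.0499% of blood progenitor-like cells. Its share of somite-like cells was thus above that background at day 19 in both breeds, and at day 16 rested on 10 cells.

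**Figure D2:**
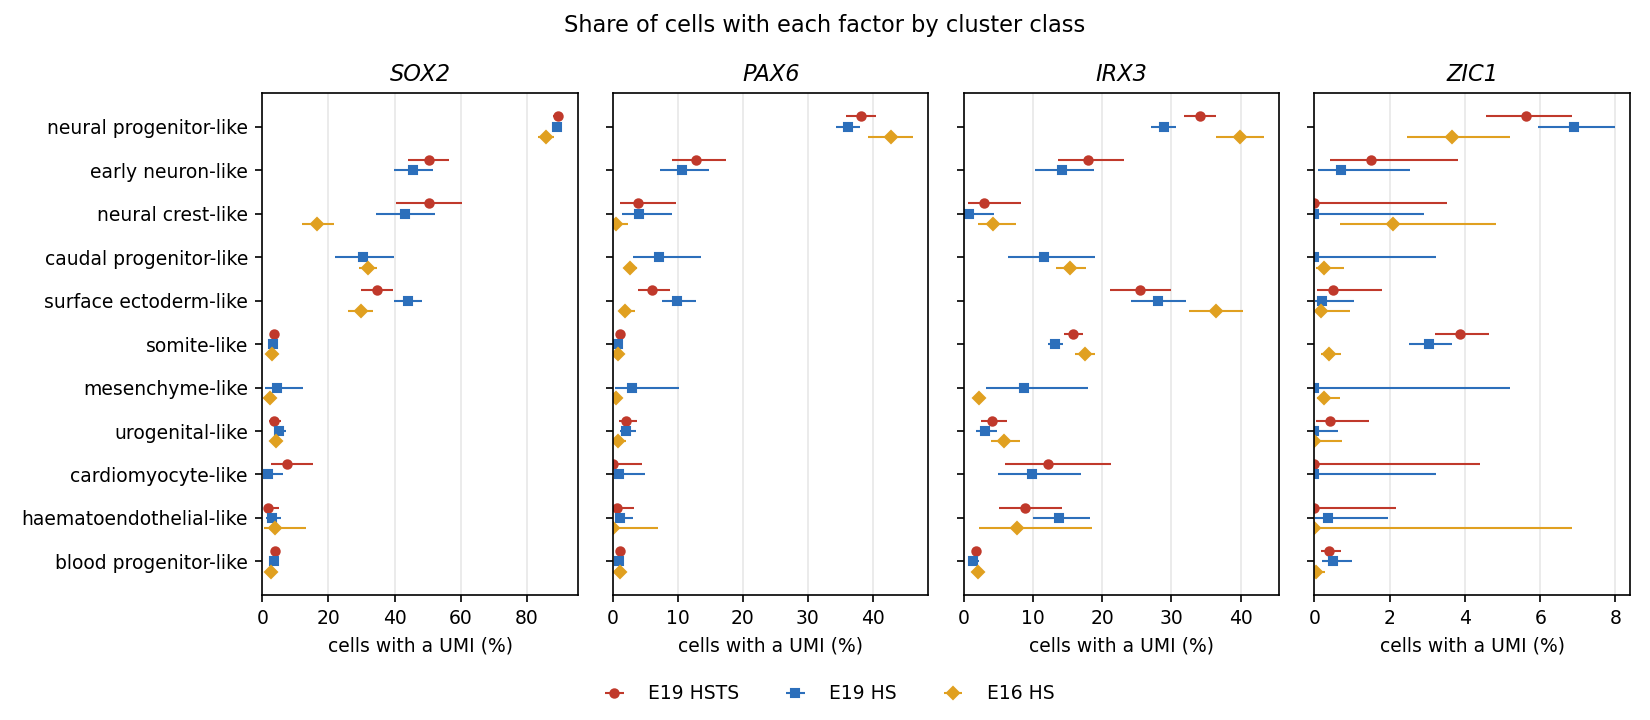
Share of cells with at least 1 UMI of SOX2, PAX6, IRX3 and ZIC1 in each cluster class with at least 50 cells in the library, with exact 95% binomial intervals, for the 3 libraries. SOX2 and PAX6 peak in neural progenitor-like cells, IRX3 is also seen in surface ectoderm-like and somite-like cells, and ZIC1 in somite-like cells of the day 19 libraries.

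Between neural progenitor-like and early neuron-like cells of the same library, *NKX6-1* went in the opposite direction to the other factors with enough counts. *SOX2* in early neuron-like cells was at 0.382 times (0.342 to 0.425) its neural progenitor-like level in E19 HSTS and 0.363 times (0.322 to 0.408) in E19 HS. *PAX6* was at 0.255 and 0.292 times, *IRX3* at 0.524 and 0.538 times, and *ZIC1* at 0.227 and 0.103 times, all with intervals below 1. *NKX6-1* was at 16.8 against 8.88 CPM in E19 HSTS, a ratio of 1.89 (1.22 to 2.84), and at 22.9 against 7.48 CPM in E19 HS, a ratio of 3.06 (2.06 to 4.43). In E16 HS it had 3 UMIs in the 21 early neuron-like cells (ratio 6.72, 1.3 to 21.9), where *SOX2* had 32 and a ratio that held 1 (0.739, 0.505 to 1.05) and *IRX3* had 3 (0.3, 0.0616 to 0.88). The ratios of *OLIG2* were 0.789 (0.204 to 2.2) and 1.73 (0.526 to 4.47) at day 19, and held 1.

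Cells with *SOX2* were then examined for the other 9 factors. *PAX6* was detected in 33.2%, 31.7% and 24.6% of the *SOX2* cells of the 3 libraries, and *IRX3* in 31.6%, 27.8% and 35.3%. In thinned cells these shares were 20.6%, 18.1% and 13.3% for *PAX6* and 16.6%, 15.3% and 19% for *IRX3*. Of the 27 shares of *SOX2* cells with another factor, 22 moved beyond their interval with thinned cells. All 27 did with at least 2 UMIs for detection. *NKX6-1* was detected in 5.89%, 4.63% and 1.97%, *ZIC1* in 4.67%, 5.7% and 2.16%, and *OLIG2* in 1.82%, 0.967% and 0.123% of *SOX2* cells. In thinned cells these were 2.96%, 2.65% and 1.34% for *NKX6-1*, 2.41%, 2.26% and 0.412% for *ZIC1*, and 0.413%, 0.49% and 0% for *OLIG2*. The day 19 libraries were then in the other order for *ZIC1*, on 35 and 46 cells, and for *OLIG2*, on 6 and 10 cells. The remaining factors were each found in at most 4.16% of them. No other factor was detected in 43.2%, 46.2% and 51.4% of *SOX2* cells, at least 2 others were detected in 23.1%, 19.4% and 16.5%, and no cell had more than 5. Read the other way, 90.1%, 87.9% and 85.3% of *PAX6* cells had *SOX2*, and so did 85.1%, 77.2% and 78% of *NKX6-1* cells. For *IRX3* the shares were 51.3%, 54.9% and 40.1%, and for *ZIC1* 43.1%, 57.6% and 66%.

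The cells in which *SOX2* was detected lay in different clusters at the 2 stages. At day 19, 69.2% of them in E19 HSTS and 72.9% in E19 HS were neural progenitor-like, against 42.1% in E16 HS. Caudal progenitor-like cells held 21.9% of the *SOX2* cells of E16 HS, and 0.421% and 1.13% of those of E19 HSTS and E19 HS. Surface ectoderm-like cells held 6.5%, 7.7% and 10.6%.

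For each of the 36 pairs of the other 9 factors, the number of *SOX2* cells with both was set against the number expected if the factors were independent among cells of similar depth, taken in 10 strata of UMIs per cell. The intervals are those of the observed count, with the expected number taken as fixed, and cells of 1 embryo are not replicates. *PAX6* and *IRX3* were found together more often than that in all 3 libraries. They shared 362 cells against 243 expected in E19 HSTS (ratio 1.49, 1.34 to 1.65), 418 against 292 in E19 HS (1.43, 1.3 to 1.57) and 222 against 154 in E16 HS (1.44, 1.26 to 1.64). Among *SOX2* cells of the neural progenitor-like cluster alone, a check added after the first values had been seen, these ratios were 1.34 (1.2 to 1.49), 1.39 (1.26 to 1.54) and 1.2 (1.03 to 1.39).

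Several pairs of a ventral factor with a dorsal or intermediate one shared fewer cells at day 19 than independence gives. *IRX3* and *OLIG2*, which repress each other, shared 1 cell against 12.1 expected in E19 HSTS (ratio 0.0823, 0.00208 to 0.459) and 1 against 8.33 in E19 HS (0.12, 0.00304 to 0.669). *NKX6-1* and *ZIC1* shared 0 cells in both day 19 libraries, against 6.22 and 8.1 expected, with upper bounds of the ratio at 0.593 and 0.456. *IRX3* and *NKX6-1* shared 25 cells against 41.6 (0.601, 0.389 to 0.887) and 24 against 40.2 (0.597, 0.383 to 0.888). *PAX6* and *NKX6-1* shared 24 against 43.5 in E19 HSTS (0.551, 0.353 to 0.82) and 35 against 45.6 in E19 HS (0.767, 0.534 to 1.07), an interval that held 1. Each of these pairs kept its direction within the neural progenitor-like cluster, with *PAX6* and *NKX6-1* at 0.466 (0.281 to 0.728) and 0.683 (0.461 to 0.975). In E16 HS the pairs with *NKX6-1* rested on 32 *NKX6-1* cells: *IRX3* and *NKX6-1* shared 15 cells against 11.7 expected (1.28, 0.717 to 2.11), and *PAX6* and *NKX6-1* 11 against 8.49 (1.3, 0.647 to 2.32). Those intervals held 1 and overlapped those of the day 19 libraries.

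Pairs of neighbouring factors were less clear. The ventral pair *NKX6-1* and *OLIG2* shared 6 cells against 2.25 expected in E19 HSTS (ratio 2.67, 0.98 to 5.81) and 6 against 1.4 in E19 HS (4.3, 1.58 to 9.35). Within the neural progenitor-like cluster these ratios were 2.01 (0.549 to 5.16) and 3.59 (1.16 to 8.37). *IRX3* and *ZIC1* shared 52 against 35.5 (1.47, 1.09 to 1.92) and 66 against 53.7 (1.23, 0.95 to 1.56). Within the cluster these were 1.32 (0.969 to 1.75) and 1.09 (0.824 to 1.4), both holding 1. *PAX6* and *ZIC1* shared 40 against 37.3 (1.07, 0.767 to 1.46) and 58 against 61.9 (0.937, 0.712 to 1.21). All 6 *DBX1* cells of E19 HSTS had *PAX6* and *IRX3*, and of the 21 *DBX1* cells of E19 HS, 10 had *PAX6* and 10 had *IRX3*. Over the 36 pairs, 8, 10 and 9 reached a ratio of 1.5 or more, most of them on few cells. The interval lay above 1 for 3, 3 and 3 pairs and below 1 for 4, 3 and 0 pairs. Within the neural progenitor-like cluster, 1, 2 and 1 pairs had an interval above 1 and 4, 4 and 0 below.

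**Figure D3:**
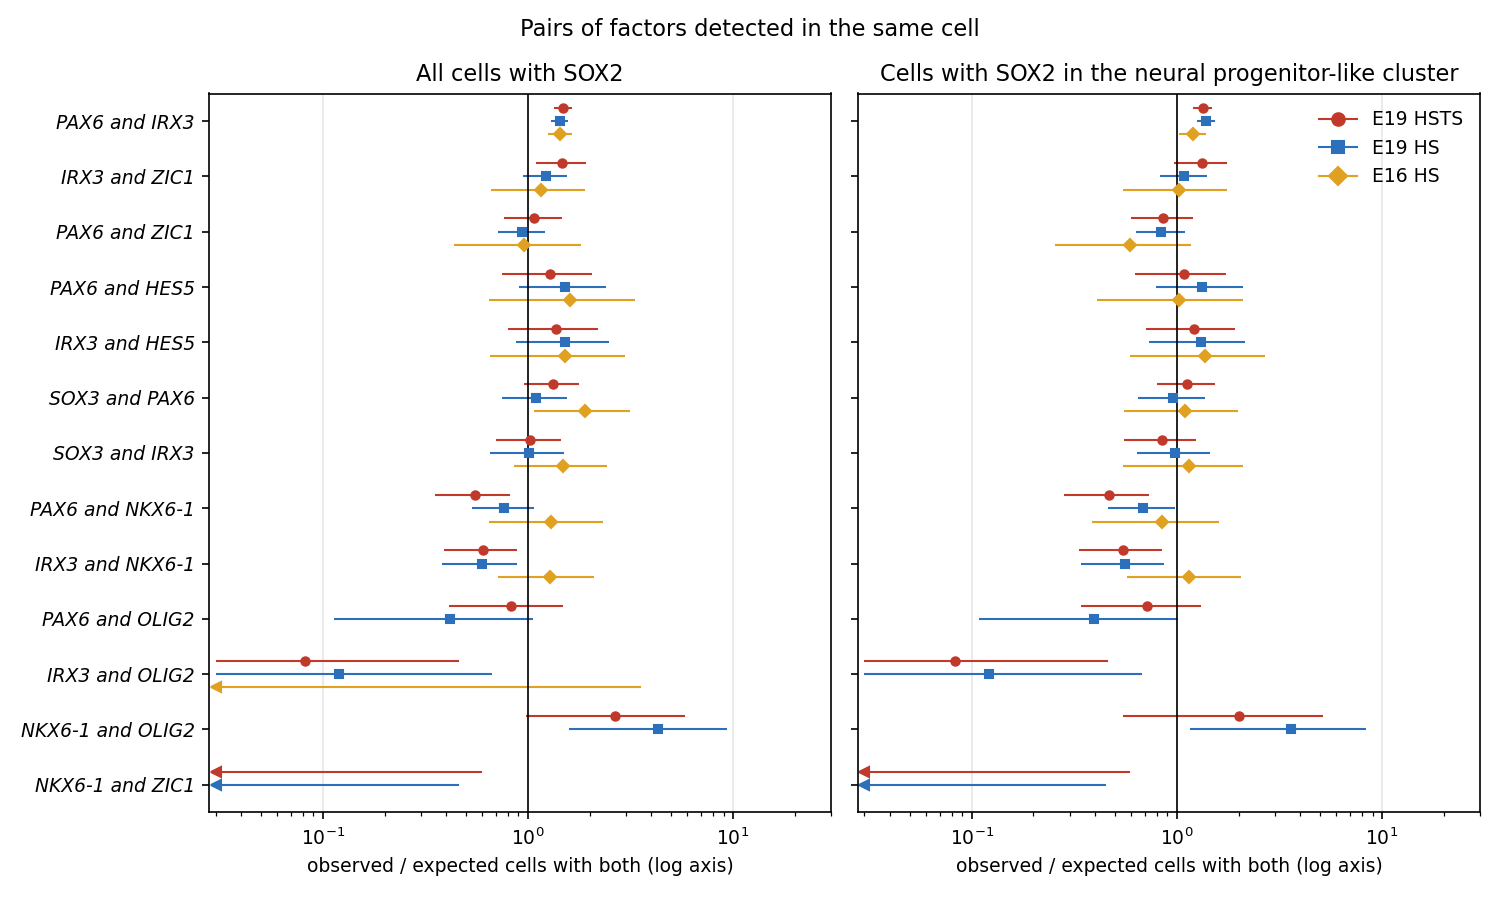
Cells with both factors of a pair relative to the number expected from independence within 10 depth strata (log axis), among all cells with SOX2 (left) and among those of the neural progenitor-like cluster (right). Points are the 3 libraries, bars are exact 95% intervals of the observed count, left-pointing arrows mark 0 shared cells, bars are cut at the left edge, and of the pairs chosen for display those with under 1 expected cell in a library are not drawn there. PAX6 with IRX3 lies right of 1 in all 3 libraries, and IRX3 with OLIG2 and NKX6-1 with ZIC1 lie left of 1 at day 19.

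The position of the factors was also read from other dorsoventral genes in the same *SOX2* cells, a panel drawn up after the first values had been seen. Cells with *ZIC1* were enriched for dorsal genes. *PAX3* was found in 63 of 100 *ZIC1* cells of E19 HSTS (ratio to expectation 2.6, 2 to 3.33), 81 of 171 of E19 HS (2.7, 2.15 to 3.36) and 21 of 35 of E16 HS (2.88, 1.78 to 4.4). *ZIC2*, the relative of *ZIC1*, had ratios of 2.92, 3.03 and 1.89. The ventral factor *NKX6-1* was the opposite: *PAX3* was found in 4 of 126 cells (0.151, 0.0411 to 0.386), 3 of 139 (0.14, 0.0288 to 0.409) and 0 of 32. None of the 39 *OLIG2* cells of E19 HSTS and 1 of the 29 of E19 HS had *PAX3*. *DBX2*, a factor of the intermediate progenitors, was found in 0 *NKX6-1* cells at day 19, against 4.45 and 4.71 expected. *SHH*, the ventral signal itself, was found with *NKX6-1* in 10 cells of E19 HSTS (ratio 3.69, 1.77 to 6.79) but in 1 cell of E19 HS (0.602, 0.0153 to 3.36). *FOXA2*, a floor plate factor, was found with it in 4 cells of E19 HSTS (2.19, 0.598 to 5.62) and 9 of E19 HS (4.5, 2.06 to 8.54). In E16 HS *NKX6-1* shared 0 cells with either, where under 1 was expected.

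Of the intermediate genes, *PAX6* was found above expectation with *DBX2* and *IRX5* in all 3 libraries. Its ratio with *DBX2* was 2.09 (1.58 to 2.72), 2.21 (1.73 to 2.79) and 2.52 (1.8 to 3.44), and with *IRX5*, which lies in the same gene cluster as *IRX3*, 1.53, 1.47 and 1.78. With *NKX6-2*, a relative of *NKX6-1*, it was 1.58 (1.05 to 2.28), 0.876 (0.567 to 1.29) and 1.55 (0.623 to 3.19). It shared 0 cells with *FOXA2* in all 3 libraries, against 9.33, 14.3 and 5.57 expected, and 1 cell with *SHH* in each day 19 library, against 14 and 11.8. *IRX3* was found with *IRX5* at ratios of 1.72, 1.82 and 1.61 and with *DBX2* at 1.94, 1.64 and 1.6. Its ratios with *NKX6-2* were 0.799, 0.683 and 1.02, with intervals that held 1. With *PAX3* its ratio was 1.37 (1.19 to 1.56) and 1.33 (1.14 to 1.53) at day 19 and 1.01 (0.845 to 1.21) at day 16.

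**Figure D4:**
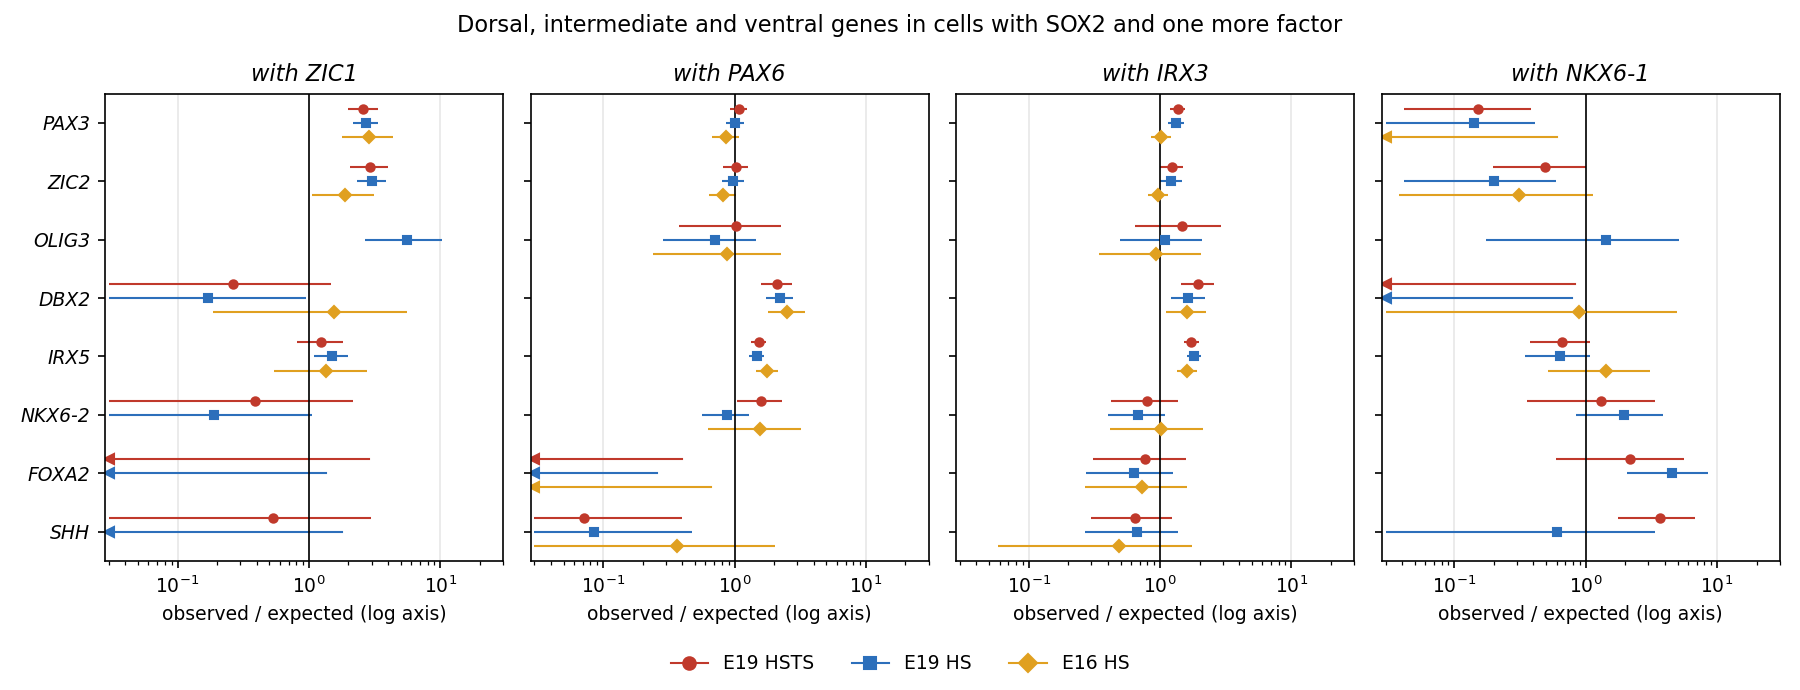
Dorsal (PAX3, ZIC2, OLIG3), intermediate (DBX2, IRX5, NKX6-2) and ventral (FOXA2, SHH) genes in cells with SOX2 and, from left to right, ZIC1, PAX6, IRX3 or NKX6-1, as observed over expected cells (log axis) with exact 95% intervals of the observed count, drawn where at least 1 cell was expected. ZIC1 lies right of 1 with the dorsal genes, PAX6 right of 1 with DBX2 and IRX5 and left of 1 with FOXA2 and SHH, and NKX6-1 left of 1 with PAX3.

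With finer clustering (resolution 1 in place of 0.25), the neural progenitor-like cells included a small cluster led by *SPON1*, *HCRT*, *ENKUR* and *TPPP3*, with *RFX4* and *NTN1* next, singled out here after its values had been seen. It held 93, 134 and 6 cells, and 95.7% and 91% of its day 19 cells had *SOX2*. Among its 227 day 19 cells *PAX6* was detected in 0 cells, which allows a share of cells with a UMI of up to 1.32%, while *NKX6-1* was detected in 24 (10.6%), *SHH* in 40 (17.6%) and *FOXA2* in 32 (14.1%). *PAX3* was found in 1 of the 227 cells. *IRX3* was detected in 9.68% and 8.21%, below its share in neural progenitor-like cells as a whole. The cells of this cluster were also shallower, at 0.621 times the depth of their samples against 0.848 to 1.12 times in the other neural progenitor-like clusters. The part of depth in these shares was not tested. *OLIG2*, *HES5*, *DBX1* and *SOX1* were also at 0 cells, but their shares in neural progenitor-like cells as a whole are so low that few such cells would be expected among 227.

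At day 19, *IRX3* and *ZIC1* had the largest parts of their UMIs outside the neural clusters, and at day 16 *IRX3* and *SOX2* had. For *IRX3* these were 51.6%, 47.8% and 75.2% of its UMIs, and for *ZIC1* 57.3%, 40.8% and 42.9%. For *SOX2* they were 15.3% and 14.6% at day 19 and 52.1% in E16 HS, where the caudal progenitor-like cluster held 1541 of its 5329 UMIs. The remaining factors had 0% to 18.8% of their UMIs outside the neural clusters at day 19. In E16 HS, *NKX6-1* had 38.3% of 47 UMIs, *SOX3* 29% of 31, *DBX1* 1 of 5 and *OLIG2* 1 of 2 UMIs outside. Somite-like cells were the largest source outside the neural clusters for *IRX3* (739, 677 and 779 UMIs) and for *ZIC1* (148, 133 and 10 UMIs). The somite-like class was drawn differently in other clusterings: clustered alone, E19 HSTS and E19 HS gave 787 and 1025 mesenchyme-like cells, led by *DCN*, *POSTN* and *COL1A1*, against 42 and 69 in the joint clustering. E16 HS clustered alone gave another mesenchyme-like cluster of 1215 cells, led by *POSTN*, and 1297 somite-like cells against 2639 in the joint clustering. At resolution 1 the largest mesenchyme-like cluster at day 19, led by *POSTN* and *HAND2*, held 531, 843 and 607 cells, of which 25.6%, 15.4% and 22.2% had *IRX3* and 0.565%, 0.474% and 0% had *ZIC1*.

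In somite-like cells the level of *ZIC1* was 6.48, 5.32 and 0.474 CPM in the 3 libraries. It was 11.2-fold lower in E16 HS than in E19 HS (ratio 0.0891, 0.0418 to 0.169), and the day 19 libraries had a ratio of 1.22 (0.958 to 1.55). *IRX3* was at 32.4, 27.1 and 36.9 CPM there, with ratios to E19 HS of 1.2 (1.08 to 1.33) and 1.36 (1.23 to 1.51). In these clusters *IRX3* thus did not share the direction of *ZIC1* between the days, whereas in cells gated by marker genes it did. The cells behind these classes can differ: of the 2 somite-like clusters, the one led by *POSTN* held 1604, 2140 and 1225 cells, and the one led by *TWIST1* and mitosis genes held 1312, 1500 and 1414.

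At day 19, *IRX3* and *ZIC1* shared fewer somite-like cells than independence gives. They shared 6 cells against 20 expected in E19 HSTS (ratio 0.3, 0.11 to 0.653) and 7 against 17.4 in E19 HS (0.402, 0.162 to 0.828). In E16 HS, with 10 *ZIC1* cells, they shared 2 against 2.22 (0.899, 0.109 to 3.25). *IRX3* cells had *PRRX1*, a factor of lateral and limb mesenchyme, at ratios of 1.88 (1.64 to 2.14), 2.05 (1.79 to 2.35) and 1.86 (1.5 to 2.28), and *IRX5* at 2.79, 3.2 and 2.64. *TWIST1*, a marker that names these clusters, stood at 1.16 (1.03 to 1.3), 1.27 (1.13 to 1.43) and 1.02 (0.877 to 1.17). Several other somite genes lay below expectation in the *IRX3* cells: *MEOX1* stood at 0.43, 0.239 and 0.433, *MEOX2* at 0.187, 0.3 and 0.137, *TCF15* at 0.133, 0.359 and 0.25, and *PAX1*, a sclerotome factor, was found in 0 of 462, 0 of 482 and 1 of 462 *IRX3* cells against 17.8, 15.1 and 10.3 expected. The intervals of *PAX7* held 1 in all 3 libraries, and so did that of the somite gene *FOXC2* in E16 HS (0.595, 0.297 to 1.06). *ZIC1* cells differed. At day 19 they had *MEOX1* at 2 (1.5 to 2.62) and 1.73 (1.13 to 2.53), *MEOX2* at 1.97 (1.44 to 2.63) and 1.94 (1.33 to 2.72), *PAX3*, a dermomyotome factor, at 1.69 (1.22 to 2.3) and 1.64 (1.08 to 2.38), and *ZIC2* at 3.4 and 4.32. Their ratio with *PRRX1* was 0.756 (0.474 to 1.14) and 0.736 (0.443 to 1.15). The intervals of *TWIST1*, *TCF15*, *FOXC2*, *PAX7* and *PAX9* in the *ZIC1* cells also held 1 in both day 19 libraries. Most of these genes also shaped or named the clusters, which is why the ratios are given within the somite-like cells only.

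**Figure D5:**
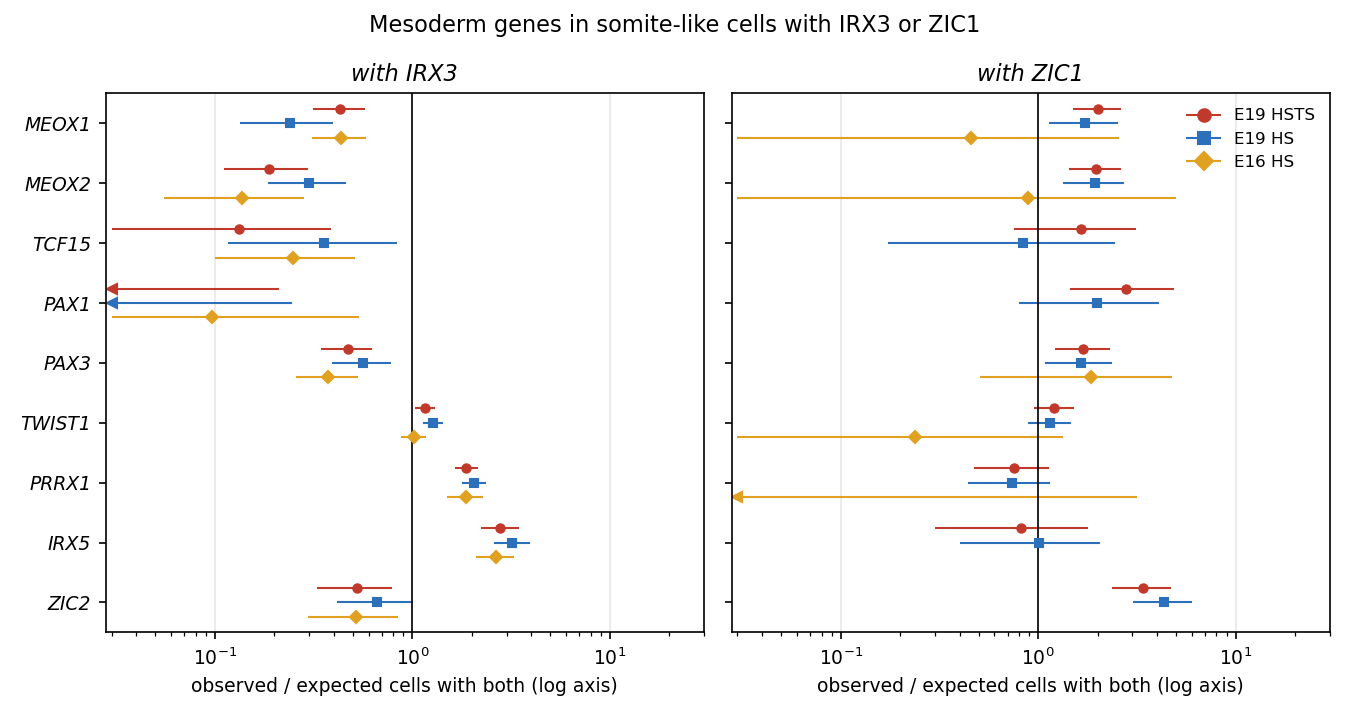
Mesoderm genes in somite-like cells with IRX3 (left) or ZIC1 (right), as observed over expected cells within 10 depth strata (log axis) with exact 95% intervals of the observed count, for the 3 libraries, drawn where at least 1 cell was expected. Cells with IRX3 lie left of 1 for MEOX1, MEOX2, TCF15, PAX1 and PAX3, close to 1 for TWIST1 and right of 1 for PRRX1 and IRX5, and at day 19 cells with ZIC1 lie right of 1 for MEOX1, MEOX2, PAX3 and ZIC2.

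The same 2 factors were looked up in cells gated by marker genes in place of clusters, with mesoderm cells defined by at least 2 mesoderm markers, *PRRX1* among them (1984, 2018 and 2376 cells). *IRX3* was detected in 19.7%, 18.1% and 13.5% of these, at 35, 32.8 and 18.7 CPM, and *ZIC1* in 3.98%, 2.78% and 0.168%, at 5.65, 4.13 and 0.141 CPM. The order of the libraries for *IRX3* differed from that in the somite-like clusters, where E16 HS had the largest share. For *ZIC1* both gave the lowest share in E16 HS.

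The caudal progenitor-like cluster held 1114 cells in E16 HS and was led by *FGF8*, *CDX2* and *CDX4*. *SOX2* was detected in 355 of these cells (31.9%) at 140 CPM. The same cluster had 33 cells in E19 HSTS and 112 in E19 HS, at 131 and 133 CPM. In E16 HS its *SOX2* cells had more of the other neural factors: *IRX3* was shared by 119 cells against 62.9 expected (ratio 1.89, 1.57 to 2.26) and *PAX6* by 24 against 12.1 (1.98, 1.27 to 2.95). They had *CDX4*, a caudal factor, at 1.44 (1.24 to 1.66), and 14 of the 15 cells with *NKX1-2*, a marker of the caudal epiblast, had *SOX2*. These *SOX2* cells had *FGF17* below expectation, at 0.707 (0.543 to 0.905), and *FGF8*, which leads the cluster, at 1.02 (0.873 to 1.18). They had fewer of the presomitic genes *DLL3* (0.455, 0.37 to 0.555) and *MSGN1* (0.365, 0.134 to 0.795) and of the somite gene *MEOX1* (0.153, 0.056 to 0.332). The intervals of the presomitic genes *TBX6* (0.688, 0.253 to 1.5) and *HES7* (0.694, 0.411 to 1.1) held 1. *T* and *SOX2*, which are found together in neuromesodermal progenitors, shared 37 cells of the cluster against 47.7 expected (0.776, 0.546 to 1.07). Over all kept cells, *T* was detected in 5, 29 and 165 cells, of which 2, 4 and 41 had *SOX2*.

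In surface ectoderm-like cells, whose cluster was led by the ectoderm genes *TFAP2A* and *DLX5* but also by *CLDN7* and *KRT7*, which the gut expresses too, *SOX2* was detected in 34.7%, 44% and 29.7% of cells. *PAX6* was detected in 5.99%, 9.9% and 1.9%, and its level was 15.7, 30.7 and 2.39 CPM. Of these *PAX6* cells, 22 of 24, 44 of 52 and 9 of 11 also had *SOX2*. With *DLX5*, a factor of the placodal ectoderm, *PAX6* shared 19 cells against 8.9 expected in E19 HSTS (ratio 2.14, 1.29 to 3.34) and 31 against 20.8 in E19 HS (1.49, 1.01 to 2.12), but 3 against 3.22 in E16 HS (0.93, 0.192 to 2.72). With *TFAP2A* the ratios of *PAX6* were 1.24, 1.15 and 1.53, with intervals that held 1. *SOX2* stood at 0.941, 0.792 and 0.696 with *DLX5*, also with intervals that held 1. *PAX6* and *IRX3* shared 4 cells against 7.3 (0.548, 0.149 to 1.4) and 8 against 18.4 (0.436, 0.188 to 0.859) at day 19, and 5 against 4.83 (1.04, 0.336 to 2.42) at day 16. Of these intervals only that of E19 HS lay below 1. *IRX3* cells had *IRX5* at 1.52 (0.81 to 2.6), 1.85 (1.26 to 2.63) and 1.72 (1.12 to 2.51). The surface ectoderm-like class was drawn differently when each library was clustered alone. E19 HS gave 571 surface ectoderm-like cells. In E19 HSTS, *CXCL14*, *CLDN7* and *KRT7* led a 519-cell cluster together with *SERPINA1* and *AHSG*, named extraembryonic endoderm-like. E16 HS gave a 746-cell cluster of that name, with *CXCL14* and *CLDN7* among its leading genes.

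In neural crest-like cells *SOX2* was detected in 50.5%, 43.2% and 16.4% of 103, 125 and 238 cells, at 110, 86 and 22 CPM. *SOX10* and *TFAP2B*, which define neural crest, were found in the *SOX2* cells at ratios between 0.973 and 1.39, with all intervals holding 1. *NKX6-1*, *OLIG2* and *HES5* were detected in 0 of the 466 neural crest-like cells, which allows a share of cells with a UMI of up to 0.644% for each. This limits detection only, since these transcripts are counted in few cells of the neural progenitor-like cluster too.

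Further genes of the same pathways were taken from lists, of which only those with at least 20 UMIs in both libraries together were counted. Between E19 HSTS and E19 HS, 0 of 8 intermediate and ventral genes, 0 of 7 neural progenitor genes, 0 of 9 Notch pathway genes and 0 of 7 genes of postmitotic neurons were past 2-fold, where 5.71% of all genes counted were, so that 0 is near the background for lists of this size. The genes past 2-fold were *LMX1A*, a roof plate factor and 1 of 8 roof plate and dorsal genes, with 20 against 47 UMIs (ratio 0.379, 0.213 to 0.652), and *NEUROD1*, 1 of 5 proneural genes, with 51 against 20 UMIs (2.27, 1.33 to 4.02). The roof plate and dorsal list had a median log2 ratio of -0.33. Besides *LMX1A*, the intervals of *MSX1* (0.685, 0.485 to 0.962), *MSX2* (0.727, 0.561 to 0.941) and *ZIC2* (0.873, 0.784 to 0.972) lay below 1. That of *PAX3* lay above 1, at 22.2 against 16.9 CPM (1.31, 1.23 to 1.4), and those of *PAX7* (1.47, 0.998 to 2.17) and *OLIG3* (0.577, 0.321 to 1.01) held 1. The other lists also had intervals below 1, as for *FABP7* (0.516, 0.486 to 0.548), *LFNG* (0.559, 0.48 to 0.649) and *NKX6-2* (0.566, 0.427 to 0.746). Besides *NEUROD1*, those of *GLI1* (1.32, 1.02 to 1.72) and *LHX1* (1.17, 1.01 to 1.36) lay above 1. Over all genes counted, 29.5% of intervals lay below 1 and 18.6% above.

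Between E16 HS and E19 HS more of these genes were past 2-fold, where 7.89% of all genes counted were lower and 8.06% higher. All 5 proneural genes were lower, among them *NEUROD4* (13 against 200 UMIs, ratio 0.0509). Of 8 intermediate and ventral genes, 5 were lower: *IRX5* (0.427), *NKX6-2* (0.315), *PRDM8* (0.152), *DBX2* (0.4) and *SHH* (0.419). In the same list *GLI1* (1.96, 1.56 to 2.49) and *PTCH1* (1.17, 1.08 to 1.27), which respond to Sonic hedgehog signalling, had intervals above 1. Of 7 neural progenitor genes, 4 were lower: *RFX4* (0.21), *POU3F2* (0.22), *FABP7* (0.395) and *MSI1* (0.431). Among 8 genes of postmitotic neurons 5 were lower, including the neurofilament genes *NEFM* (0.129) and *NEFL* (0.318), and 1 was past 2-fold higher, *EVX1*, with 19 against 7 UMIs and an interval that held 1 (2.13, 0.856 to 5.99). Below 2-fold, *ISL1* (1.67, 1.35 to 2.08) and *LHX1* (1.27, 1.11 to 1.47) of this list had intervals above 1. The roof plate and dorsal list had 1 of 8 lower, *PAX7* (0.366), and its median log2 ratio was -0.24. The Notch pathway was mixed, with *DLL1* (2.61, 2.41 to 2.84) and *DLL3* (2.29, 2.16 to 2.43) higher and *LFNG* (0.49, 0.421 to 0.569) and *NRARP* (0.356, on 32 UMIs) lower. *DLL1* and *DLL3*, Notch ligands that presomitic cells also express, were among the leading genes of the caudal progenitor-like cluster, which was 9.83% of E16 HS cells and 1.05% of E19 HS cells. Neural progenitor-like and early neuron-like cells together were 7.19% and 25.7%. The part of these cluster sizes in the levels of the list genes, higher or lower, was not tested.

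The genes most like each factor were found from the correlation of log2(CPM + 1) over 43 points, each a cluster in a library, among 8989 genes. The points share libraries and depth, so the values are a description. *SOX2* was most like *PAX6* (r = 0.875), *STMN2* (0.844) and *MREG* (0.837), and *PAX6* most like *DMRTA1* (0.878), *SOX2* and *PLD5* (0.857). *IRX3* was most like *IRX5* (0.877), *NSG1* (0.852) and *ANKRD6* (0.824). *OLIG2* was most like *NKX6-1* (0.869), *NEUROD4* (0.866) and *POU3F2* (0.855), and *NKX6-1* most like *POU3F2* (0.916), *IGFBPL1* (0.913) and *RHBDL3* (0.912). *ZIC1* was most like *RSPO2* (0.824), *APCDD1* (0.733) and *NTN1* (0.721). *SOX1* was most like *RFX4* (0.927), *POU3F2* (0.89) and *SOX3* (0.867), and *SOX3* most like *SCUBE2* (0.882), *POU3F2* (0.88) and *RFX4* (0.878). *HES5* was most like *FAM166C* (0.924), *NKX2-8* (0.87) and *NDP* (0.842), and *DBX1* most like *CP* (0.797), *RFX4* (0.789) and *SCUBE2* (0.786). For *HES5*, *SOX1*, *DBX1* and *OLIG2* these patterns rest on 92, 36, 33 and 85 UMIs over the 3 libraries.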

How the data were processed

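Whole-embryo cells were profiled with 10x Genomics 3' chemistry, 1 library for each of 3 groups. The authors deposited filtered matrices of raw UMI counts per gene and barcode, which the submitters' processing notes credit to Cell Ranger 6.1.2, with R 4.1.2 and Seurat 4.1.1 also named. The genome build of the annotation was Ovis_aries_genome_v1.0, a build for which no sequence or coordinates were used here. Kept cells had 200 to 6000 genes, 1000 to 30000 UMIs and a mitochondrial share not above 10%. The study gives this filter and also a stricter one (at least 500 genes and under 5%), which was run as an alternative.

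The kept cells of the 3 libraries were clustered together in Seurat 5.3.0 (R 4.3.3) on 2000 variable genes without the 10 factors, with the mitochondrial share regressed out, 25 components and resolution 0.25, with no batch integration. A cluster was named when at least 3 markers of a type were detected in 10% of its cells, their mean standardised expression was at least 0.8 and its depth was not far below that of its samples. Of the marker genes, 11 had no single row under their symbol. Doublets were scored with Scrublet in scanpy 1.11.5, which marked 2.01%, 0% and 1.75% of the E19 HSTS, E19 HS and E16 HS cells. As it marked none in E19 HS it was not used to remove cells, and doublets remain among the cells counted. As an alternative, the top 8% of cells by this score were left out of each library.

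Levels are sums of UMIs over 1000000 UMIs of the cells concerned. Ratios of levels have exact conditional binomial intervals, shares Clopper-Pearson intervals and counts exact Poisson intervals, all at 95%. They cover counting error only, and cells of 1 embryo are not replicates. Where a factor was detected in 0 cells, the share said to be allowed is 3 counts of the cells looked at. Upper bounds for 0 shared cells are those of the exact Poisson interval. The expected number of cells with 2 genes was summed over 10 depth strata. A gene was called past 2-fold at a ratio of at least 2 or at most 0.5. Alternatives were TMM and RLE scaling (edgeR 4.0.16), the stricter filter, all deposited cells, leaving out the blood progenitor-like clusters, thinning to 3000 UMIs, a minimum of 2 UMIs for detection, resolution 1, clustering each library on its own and marker-gene gates. Calculations used Python 3.11.15 with numpy 2.4.6, pandas 2.3.3 and scipy 1.17.1, and the interval and co-detection code was tested on simulated data.

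The members and gene lists were chosen with earlier results of these data known. Named genes were the 10 factors, the list genes past 2-fold with at least 50 UMIs in the libraries compared, *NKX2-2*, *PAX3* and *PAX7*, the markers that name a cluster, and the 3 genes most like each factor among genes with at least 200 UMIs. Other genes named, such as the partners in co-detection and list genes on fewer UMIs, were chosen after their values had been seen.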

Additional observations from a re-analysis of the deposited data

How the results depend on the processing

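The number of factors at least 2-fold apart was 1 between the day 19 libraries and 9 between E16 HS and E19 HS under every alternative run for it (scalings, filters, doublet scores, and no blood progenitor-like clusters), and no factor past 2-fold changed direction. Below 2-fold, 5 of the 10 ratios between the day 19 libraries were above 1 without the blood progenitor-like clusters, as was that of *HES5* under TMM (1.03) and RLE (1.02) scaling, where none was otherwise. The share of cells with *SOX2* was 30% in E19 HS under the stricter filter, 20.6% and 26% in E19 HSTS and E19 HS over all deposited cells, and 21.4% in E19 HSTS and 13.4% in E16 HS without the cells of highest doublet score. Over the 3 libraries, E19 HSTS first and E16 HS last, it was 17.1%, 22% and 9.71% with thinned cells, and 17.1%, 21% and 9.51% with at least 2 UMIs for detection. Pairs at 1.5 times expectation or more, 8, 10 and 9 in the same order, were 5 in E19 HS with thinned cells, 3, 3 and 1 with at least 2 UMIs, and 5, 7 and 6 among neural progenitor-like cells alone, the alternative added after seeing the data. Factors with most UMIs outside the neural clusters, 2, 0 and 2, were 1 in E16 HS with each library clustered on its own, 3 in E19 HS and 8 in E16 HS under marker-gene gates, and 1 in E19 HSTS without the cells of highest doublet score. Marker-gene gates moved 24 of 28 shares of UMIs outside the neural clusters beyond their interval. Resolution 1 moved 3 of 30, and so did clustering each library on its own. Leaving out the cells of highest doublet score moved 13 of 30. The share of *SOX2* was then 10.5%, 10.9% and 46.4%, from 15.3%, 14.6% and 52.1%, and that of *PAX6* 8.77%, 10.4% and 13.5%, from 13.1%, 14.8% and 18.9%. The gate values compare UMI sums of 2018 mesoderm with 273 neural cells in E19 HS and of 2376 with 65 in E16 HS, so they follow the gates' sizes. The level of *SOX2* in E16 HS was 309 CPM in the neural gate and 12.3 CPM in the mesoderm gate. The cause of the other changes was not tested, beyond the fewer counts that thinning and a higher minimum leave. Of the 10 ratios between the day 19 libraries, 5 moved beyond their counting interval without the blood progenitor-like clusters. The precision for *DBX1*, *SOX1*, *OLIG2* and *HES5* is limited by their few UMIs. No paired analysis was possible because each group has 1 library and the labels give no replicate numbers.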
